A study of Mus musculus with 2 samples.

Results

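Definitive-type red cells are the adult-globin branch of the blood lineage. Mouse embryos make red cells in waves. Primitive red cells arise in the yolk sac, circulate with their nucleus and carry embryonic globins. Definitive red cells mature in the fetal liver around islands of macrophages, expel their nucleus and carry adult globins, and they are beginning to reach the circulation at this stage. Here they were chosen by globin mix alone, among droplets of dissociated heart whose RNA was mostly haemoglobin. A barcode counted as a red cell when it had at least 1000 UMIs (unique molecular identifiers, each standing for 1 captured RNA molecule), with at least 50% of them from haemoglobin genes. It counted as definitive type when Hbb-y and Hbb-bh1, the embryonic beta-type genes, made up less than 0.2 of its UMIs from Hbb-y, Hbb-bh1, Hbb-bs and Hbb-bt. No minimum of genes was set. This left 50 definitive-type cells of 3945 red cells and 12656 barcodes of at least 1000 UMIs. For comparison, red cells with an embryonic share of 0.5 or more are called primitive type here.

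The hearts were taken at E12.5, with 1 library per genotype. Control embryos were Tbx18-Cre; YFP/+, that is, they held a Cre transgene and 1 copy of a YFP allele. Mutant embryos had the same Cre and YFP/+ together with 2 floxed copies of Prmt1 (Prmt1 fl/fl), the main enzyme of asymmetric arginine dimethylation. Tbx18-Cre is known for its activity in the epicardium, the outer layer of the heart, and not for activity in blood, and both genotypes have it. How many embryos were pooled and whether cells were sorted for YFP is not stated. With 1 library per genotype there is no replicate, no test between genotypes is possible, and every interval below is a 95% interval for counting error only.

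The libraries were deposited in different states: the control matrix held every barcode, 542175 of them with a UMI, and the mutant matrix only barcodes of at least 500 UMIs. They shared 16 barcodes of at least 1000 UMIs, none of them in a definitive-type cell. Prmt1 (chr7:44975989-44986568 of GRCm38) had 0 UMIs in the definitive-type cells of both libraries, which allows up to 337 CPM in the control and 112 CPM in the mutant (CPM stands here for UMIs per 1000000 non-globin UMIs). Barcodes that were not red cells had 609 CPM in the control and 684 CPM in the mutant. The kit reads the 3′ ends of transcripts, which can lie outside a deleted part, so these levels do not check the genotype. Near-empty control barcodes, those with 10 to 100 UMIs, took 3.55% of their UMIs from Hbb-y and 0.713% from Hba-x, so free RNA in this suspension was rich in embryonic globin. The 20 control definitive-type cells took 0.0291% of theirs from Hbb-y and 0.0145% from Hba-x.

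The control library held 20 definitive-type cells among 1831 red cells, a share of 1.09% (0.668% to 1.68%, exact Clopper-Pearson). The mutant library held 30 among 2114, a share of 1.42% (0.959% to 2.02%). The intervals overlap. With a minimum of 500 UMIs the shares were 4.42% and 3.10%, so both the size of the share and the order of the libraries depended on that minimum. Primitive-type cells numbered 1809 and 2075, and only 2 control and 9 mutant red cells lay between both types. The highest embryonic beta share inside the definitive type was 0.0140 in the control and 0.0967 in the mutant. The lowest outside it was 0.451 in the control and 0.324 in the mutant, so no cell lay near the limit of 0.2. At the haemoglobin limit the lowest cells inside held 53.1% in the control and 53.9% in the mutant. The highest barcodes outside with a definitive mix held 48.7% and 40.5%.

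The beta-type and alpha-type globin genes each lie in a cluster of embryonic and adult genes. Promoters of both clusters are shown because the beta-type genes define the definitive type and the balance of the alpha-type genes, which the rule did not use, was set beside it. On chromosome 7, on the minus strand of GRCm38, GENCODE places Hbb-y at chr7:103851749-103853216, Hbb-bh1 at chr7:103841637-103843164, Hbb-bs at chr7:103826534-103828096 and Hbb-bt at chr7:103812524-103813996. On chromosome 11, on the plus strand, it places Hba-x at chr11:32276400-32278116, Hba-a1 at chr11:32283511-32284465 and Hba-a2 at chr11:32296489-32297298. The lines below give the 130 bases before the RefSeq start of 5 globin genes (GRCm38.p6), each read 5′ to 3′ on its own strand. They cover chr7:103827929-103828058 for Hbb-bs, chr7:103813924-103814053 for Hbb-bt and chr7:103853208-103853337 for Hbb-y, all on the minus strand. On the plus strand they cover chr11:32283542-32283671 for Hba-a1 and chr11:32276470-32276599 for Hba-x. Capitals mark the motif CACCC, the motif CCAAT and the motif TATAA on either strand; in Hbb-bt, 2 adjoining matches run together.
Hbb-bs: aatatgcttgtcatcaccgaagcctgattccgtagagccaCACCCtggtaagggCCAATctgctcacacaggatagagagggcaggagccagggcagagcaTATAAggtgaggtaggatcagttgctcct
Hbb-bt: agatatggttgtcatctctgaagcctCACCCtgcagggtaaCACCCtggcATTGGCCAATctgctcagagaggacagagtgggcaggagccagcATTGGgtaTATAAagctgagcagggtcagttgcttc
Hbb-y: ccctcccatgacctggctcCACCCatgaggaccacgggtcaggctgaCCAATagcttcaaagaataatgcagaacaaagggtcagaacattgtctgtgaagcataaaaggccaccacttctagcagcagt
Hba-a1: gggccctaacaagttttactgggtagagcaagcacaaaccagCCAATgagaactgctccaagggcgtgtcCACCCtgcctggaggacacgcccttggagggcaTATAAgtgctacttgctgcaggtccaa
Hba-x: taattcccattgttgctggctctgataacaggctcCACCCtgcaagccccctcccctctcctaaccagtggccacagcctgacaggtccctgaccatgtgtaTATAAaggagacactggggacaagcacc
All 5 windows held CACCC, the core of the box that KLF-type factors such as the erythroid factor KLF1 bind, and 33.7% of 32851 mouse promoters did in windows of the same length. The adult beta gene Hbb-bs had CACCC at -90 from the start, CCAAT at -76 and TATAA at -29. Its neighbour Hbb-bt had 2 CACCC and 3 CCAAT matches. CCAAT was found in 22.4% of all promoters and TATAA in 12.7%. The embryonic pair differed from the adult genes in these letters, since Hbb-y had no TATAA and Hba-x no CCAAT. A match is a description of the sequence and not evidence of binding.

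At the beta locus, the adult gene Hbb-bs was the most abundant transcript of the definitive type. In the control it made up 52.6% of globin UMIs over all cells, with cells between 46.5% and 57.9%. In the mutant it made up 49.1%, with cells between 39.6% and 55.1%. Hbb-bt, the second adult gene, made up 6.53% in the control and 16.8% in the mutant, or 8.81% in the mutant without 6 gene-rich cells described below. These values follow from the rule that chose the cells and are given as a description. Hbb-bs and Hbb-bt, and likewise Hba-a1 and Hba-a2, are near-identical copies, so the split of reads within each pair is uncertain. Hbb-y, the main embryonic beta gene, had 10 UMIs in all 20 control cells and 40 in all 30 mutant cells, against 45.5% and 39.8% of globin UMIs in the primitive type.

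Over all cells, most of the few embryonic beta UMIs came from Hbb-bh1, although more cells held Hbb-y. Hbb-bh1 gave 617 of 657 embryonic beta UMIs in the mutant definitive type, or 93.9% (91.8% to 95.6%), and 15 of 25 in the control, or 60% (38.7% to 78.9%). In the primitive type it gave 1.31% in the control and 4.20% in the mutant. All 15 control UMIs lay in 1 cell, and 2 mutant cells held 278 and 232 of the 617, which leaves 107 in the others. Hbb-bh1 was seen in 10 of 30 mutant cells and Hbb-y in 20 of 30.

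The balance of alpha-type genes had no part in the choice of cells, and it gave the same division. Hba-x encodes zeta globin, the embryonic alpha-type chain. It had 5 of 10384 alpha-type UMIs in the control definitive type, 0.0482% (0.0156% to 0.112%), against 25.4% in the primitive type. In the mutant it had 25 of 25907, 0.0965% (0.0625% to 0.142%), against 34.1%. Of the control definitive cells, 17 of 20 had no Hba-x UMI, and the highest had 2. Of the mutant cells 18 of 30 had none, and the highest had 6. No primitive cell of either library was without it, and the lowest Hba-x share of any primitive cell was 3.91% in the control and 1.61% in the mutant, above the highest definitive cell at 0.529% and 1.04%. Cells between both types at the beta locus were also between them at the alpha locus, at 9.08% and 19.8%.

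**Figure D1:**
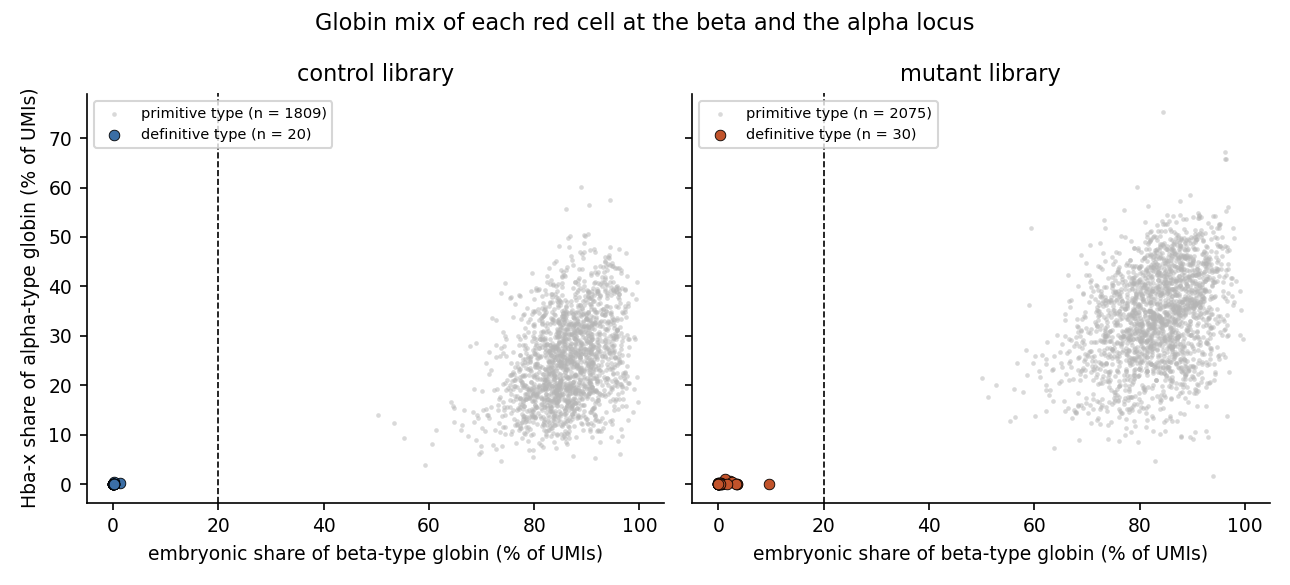
Each point is 1 red cell; the x axis gives Hbb-y and Hbb-bh1 as a percentage of beta-type globin UMIs and the y axis Hba-x as a percentage of alpha-type globin UMIs, with the control library left, the mutant right and a dashed line at the limit of 20%. The 20 control and 30 mutant definitive-type cells lie at the lower left with at most 1.04% Hba-x, apart from the primitive-type cells in grey; red cells between both types are not drawn.

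Definitive-type cells held little RNA besides globin. The control cells had between 1006 and 5753 UMIs with a median of 1165, and between 87 and 426 genes seen with a median of 153.5. The mutant cells had between 1000 and 20477 UMIs with a median of 1247, and between 109 and 1523 genes with a median of 182.5. Haemoglobin made up a median of 72.8% of UMIs in the control and 73.4% in the mutant. In the primitive type, chosen by the same limit, it made up 74.0% and 67.2%. In all, 8891 control and 26717 mutant UMIs were not from globin genes, and these are the base of the CPM levels below. In the mutant, 6 cells with at least 500 genes held 17178 of them, or 64.3%. No control definitive cell reached 500 genes, so mutant values without these 6 cells are given beside those that they move most.

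Thinned to 1000 UMIs each, the definitive cells showed a median of 140 genes in the control and 133 in the mutant. The primitive cells showed 128 in the control and 159 in the mutant. The order of both types therefore differed between libraries, and the ranges between the lower and upper quartiles overlapped, at 100.5 to 173 genes in control definitive cells and 107 to 157 in control primitive cells, and at 120 to 189 and 131 to 200 in the mutant. Unthinned, the primitive medians were 181 and 239.

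Malat1, a long noncoding RNA that stays in the nucleus (chr19:5795690-5802672, minus strand), divided the definitive cells into 2 classes. In the control, 11 of 20 cells had at most 2 Malat1 UMIs and 9 had between 21 and 98. In the mutant, 13 of 30 had at most 2 and 17 had between 10 and 176. No definitive cell had 3 to 9. The share with at most 2 was 55.0% (31.5% to 76.9%) in the control and 43.3% (25.5% to 62.6%) in the mutant. Among primitive cells it was 1 of 1809, or 0.0553%, and 5 of 2075, or 0.241%. With every cell thinned to 1000 UMIs the shares were 55.0% and 46.7% in the definitive type and 1.38% and 2.60% in the primitive type. Among the cells nearest to the UMI minimum, it was 9 of 14 definitive and 1 of 880 primitive cells in the control, and 10 of 19 and 3 of 733 in the mutant; the primitive cells there had a median of 1280 and 1296 UMIs and the definitive cells of 1083 and 1107. The class with at most 2 Malat1 UMIs was thus common among definitive cells and rare among primitive cells at like depth. Near-empty control barcodes took 2.33% of their UMIs from Malat1. Whether a cell has lost its nucleus was not measured.

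**Figure D2:**
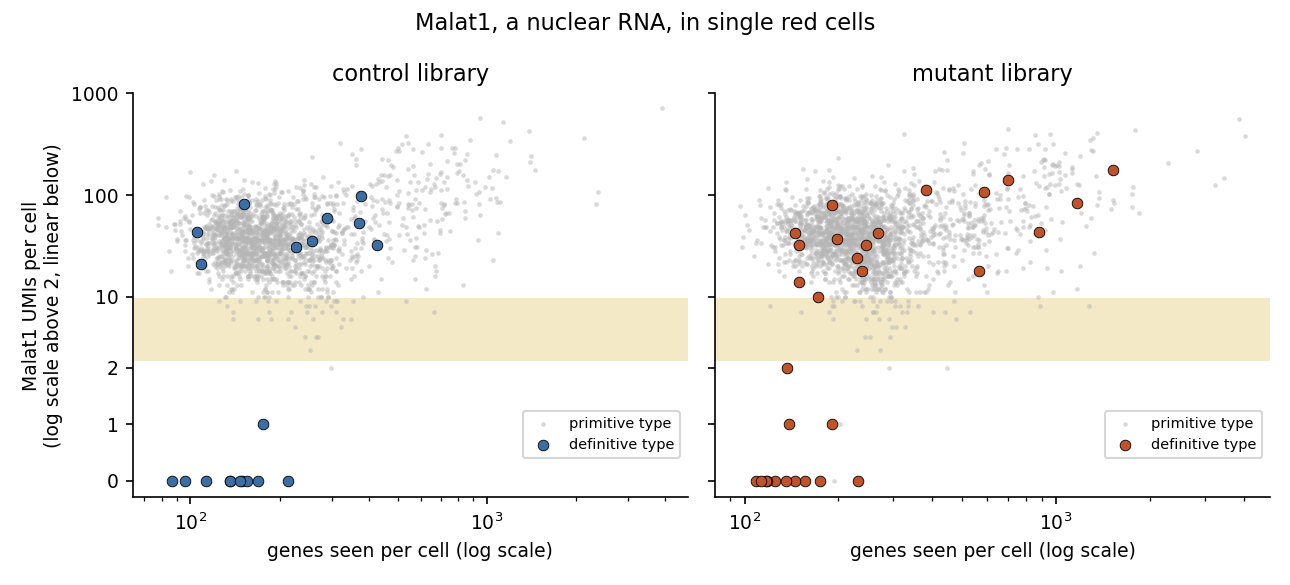
Malat1 UMIs (y axis, log scale above 2 and linear below) against genes seen (x axis, log scale) for each definitive-type cell (coloured) and primitive-type cell (grey), control left and mutant right. The shaded band marks 3 to 9 UMIs, where no definitive-type cell lies; 11 control and 13 mutant definitive-type cells lie below it, all with fewer than 250 genes.

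Cells of both Malat1 classes were compared within each library among cells with under 500 genes, 9 against 11 in the control and 11 against 13 in the mutant, a split made after seeing the values. The classes differed in genes seen, with a median of 258 in Malat1-rich against 147 in Malat1-poor cells in the control and 198 against 137 in the mutant. Their median UMIs were closer, at 1223 against 1085 and 1212 against 1107. At a depth of 1000 UMIs the median genes were 198 against 128 in the control and 180 against 122 in the mutant. In both libraries the cells with little Malat1 were richer in Mkrn1, Gabarapl2, Sec61g and Ubb. Mkrn1, which encodes a makorin ubiquitin ligase, stood at 14265 against 4765 CPM in the control, 2.99-fold higher (1.82 to 5.02), and at 14981 against 4936 in the mutant, 3.03-fold higher (1.9 to 4.99). Gabarapl2, an ATG8-family protein of autophagy membranes, was 3.18-fold higher (1.62 to 6.53) in the control and 2.73-fold (1.41 to 5.55) in the mutant. Sec61g, a subunit of the endoplasmic reticulum protein channel, was 3.08-fold higher (2.16 to 4.44) and 2.34-fold (1.73 to 3.19). Ubb, a polyubiquitin gene, was 4.41-fold higher (2.81 to 7.13) and 1.89-fold (1.17 to 3.1). Numbered by falling UMI count, control cells 1 and 2 held 36 and 28 of the 75 Ubb UMIs in Malat1-poor control cells. The control ratio of Ubb rested largely on them.

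Glrx5, a glutaredoxin of iron-sulphur cluster assembly, was 1.76-fold higher (1.01 to 3.09) in the Malat1-poor control cells and 1.73-fold (1.08 to 2.82) in the mutant ones. Cox8a, a subunit of cytochrome oxidase, was 2.01-fold (0.969 to 4.25) and 1.8-fold (0.844 to 3.97), within counting error in each. The summed list of heme synthesis genes was lower in Malat1-poor cells, at 8151 against 13746 CPM in the control and 7022 against 9683 in the mutant. The cell division list also was, at 4367 against 11730 and 2341 against 4936. The list of organelle clearance and terminal maturation genes was higher, at 39010 against 14113 and 25983 against 15379. That difference lay mostly in its members Ubb and Gabarapl2, which had been picked from this split: without them the list had 31 against 36 UMIs in the control, at 9025 against 6598 CPM, and 34 against 37 in the mutant, at 7959 against 7025 CPM. The number of genes seen moved with each of these differences, and its part in them was not tested.

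Across all genes, definitive cells were compared with primitive cells of the same library by the log2 ratio of their CPM levels, with 10 CPM added to each. Of 2015 control genes with at least 30 UMIs over both types, 17.7% were at least 2-fold higher and 58.3% at least 2-fold lower in the definitive type. Of 2888 mutant genes, 20.6% and 41.6% were. Most of the lower genes had 0 definitive UMIs, 1083 of 1175 in the control and 988 of 1200 in the mutant, a count that 8891 or 26717 UMIs cannot separate from a level similar to the primitive one for most genes. With the comparison limited to genes with 10 UMIs seen in definitive cells, or 10 expected there from the primitive level, 188 control genes remained, 28.7% of them higher and 21.8% lower. In the mutant 496 remained, 42.3% higher and 22.2% lower. Being seen in definitive cells helps a gene to pass this limit, and a gene that passed only so had to be higher. The lists below are therefore counted over genes with 10 UMIs expected from the primitive level alone, called measurable here. In the control 130 genes were measurable, 11.5% of them at least 2-fold higher and 31.5% lower, with a median log2 ratio of -0.47. In the mutant 299 were, 12.4% higher and 36.8% lower, with a median of -0.56. Among mutant cells with under 500 genes 151 were, 12.6% higher and 43.7% lower, with a median of -0.53.

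The genes that ranked highest in the definitive type in both libraries included membrane and cell cycle genes. They were ranked among genes with at least 30 UMIs over both types, and none of those named here was measurable. Being seen in definitive cells could help a gene to pass, as for Rgcc, with 23 primitive UMIs in the control. The ranks are therefore a description. Rgcc, a regulator of cell cycle, stood 51.8-fold higher (21.1 to 116) in the control, on 9 UMIs in 2 cells, and 58.5-fold higher (39.6 to 86.3) in the mutant, on 52 UMIs in 9 cells. Tspo2, an erythroid membrane protein of the translocator family, was 13.6-fold higher (7.42 to 23.2) in the control and 33.8-fold (19.8 to 56.2) in the mutant. Cd24a, a surface glycoprotein of developing blood cells, was 10.9-fold (6.21 to 17.8) and 19.4-fold (15.8 to 23.7) higher. Gmpr, a guanosine monophosphate reductase, was 20.1-fold (11.9 to 32.2) and 9.8-fold (7.27 to 13) higher.

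A further 5 act in the cell cycle, a number that was not set against the share of such genes among all genes. Tfdp2, a partner of E2F factors, was 13.9-fold (6.99 to 25.3) and 11.3-fold (8.08 to 15.5) higher. E2f2 itself was 13.2-fold (2.59 to 42.6) and 15.3-fold (7.44 to 29) higher, the first on 3 UMIs. Ube2c, the ubiquitin-conjugating enzyme of the anaphase-promoting complex, was 34.4-fold (22.6 to 51.2) and 9.93-fold (7.61 to 12.8) higher. Cenpf, a kinetochore protein, was 11.3-fold (2.23 to 36) higher in the control, on 3 UMIs, and 15.7-fold (10.8 to 22.3) in the mutant. Cdca3, a trigger of mitotic entry, was 21.4-fold (6.48 to 55.4) and 9.4-fold (5.73 to 14.7) higher. Cenpf rested on the 6 gene-rich mutant cells: without them it had a log2 ratio of -3.40, and Cdca3 of 0.23. Rgcc kept a log2 ratio of 3.88, Tspo2 of 5.11, Tfdp2 of 2.96, Cd24a of 3.32 and Gmpr of 3.0 without those cells. Ube2c kept 1.95 and E2f2 2.48.

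The genes lowest in the definitive type were nearly absent from it. Hsd3b6, a hydroxysteroid dehydrogenase (chr3:98805504-98814443, minus strand), had 0 UMIs in the control definitive cells against 2812 in the primitive ones, at least 7.08-fold lower with 0 read as 3 UMIs. In the mutant it had 2 against 5518, a ratio of 0.0245 (0.00296 to 0.0885). Tuba1a, an alpha tubulin, had 0 UMIs in all 50 definitive cells, at least 3.11-fold lower in the control and 4.61-fold in the mutant. Cited4, a transcriptional co-regulator, also had 0, at least 5.51-fold lower in the mutant. Ackr3, a scavenging chemokine receptor, had 0, at least 3.12-fold lower in the mutant. In the control the counting intervals of these 2 genes reached ratios of 1.01 and 1.17, so a lower level was not detectable at this depth. The other 6 were Drap1, Fam174b, Fabp5, Bcor, Ndfip1 and Scp2, all with 0 UMIs in both libraries and at least 1.55-fold to 2.81-fold lower in the mutant. In the control their primitive levels were near or under the 337 CPM that a count of 0 allows.

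**Figure D3:**
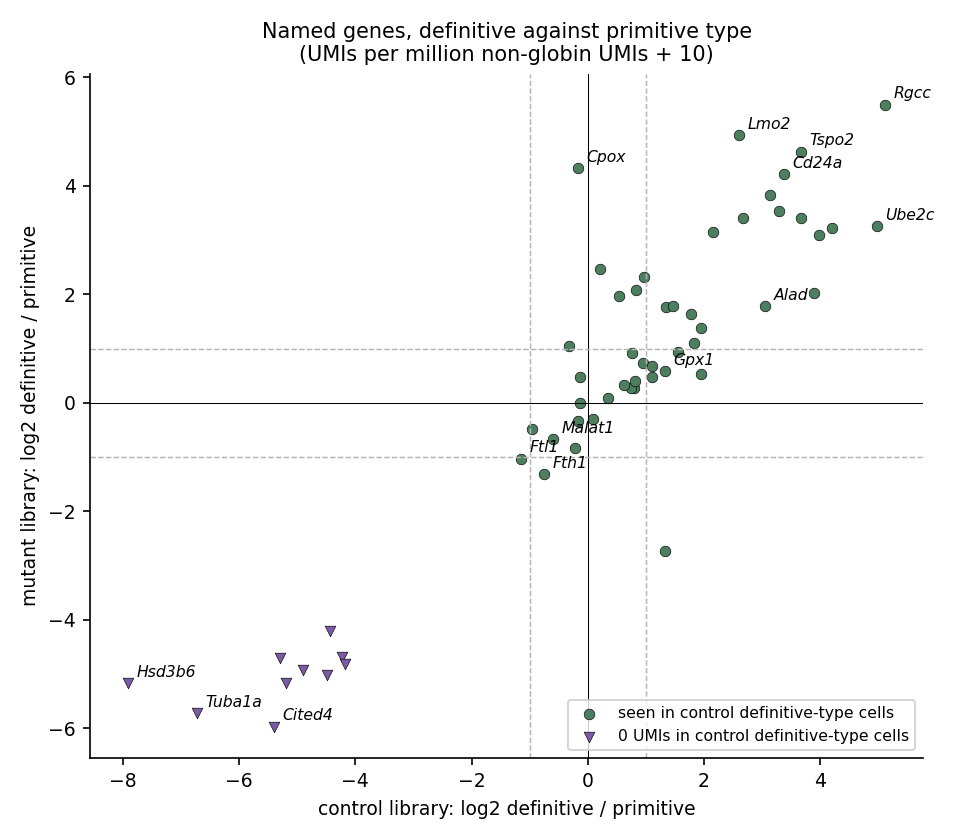
Log2 ratio of definitive-type over primitive-type level in the control (x axis) and the mutant library (y axis) for genes named by rule or list; dashed lines mark 2-fold and both levels have 10 CPM added. Genes such as Rgcc and Tspo2 lie at the upper right, and genes with 0 UMIs in control definitive-type cells (triangles), such as Hsd3b6 and Tuba1a, at the lower left, where the ratio depends on that added value.

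The summed heme synthesis list stood higher in definitive cells, in the mutant mainly through its 6 gene-rich cells. Of 8 genes, 1 was measurable in the control, Alas2, which was within 2-fold. In the mutant 5 were measurable and all 5 were at least 2-fold higher, against 12.4% of all measurable genes. Without the 6 cells 2 were measurable, with 0 higher and Alas2 lower. The summed list stood at 11585 CPM in control definitive cells against 6142 CPM in primitive ones. Of its 103 control UMIs 39 were from Alad, at 4386 against 521 CPM. The other control members went both ways, with Urod at a log2 ratio of 1.92 and Fech at -0.54. It stood at 24591 CPM in mutant definitive cells and 8491 CPM without the 6 cells, against 7035 CPM in primitive ones. Alas2, the erythroid form of the first and rate-limiting enzyme, had 21 UMIs in 10 of 20 control cells and 150 in 14 of 30 mutant cells, 139 of them in the 6 gene-rich cells. Its ratio was 0.799-fold (0.494 to 1.22) in the control and 2.08-fold (1.76 to 2.45) in the mutant, where it had a log2 ratio of -1.22 without those 6 cells. With equal weight per cell the Alas2 log2 ratio was 1.11 in the control and 0.91 in the mutant, so its direction in the control depended on how cells were weighted. Alad, the second enzyme, was 8.42-fold higher (5.93 to 11.6) in the control and 3.47-fold (2.76 to 4.3) in the mutant, with a log2 ratio of 1.58 there without the 6 cells. Cpox, which works in the mitochondrion, had 1 control UMI and 99 mutant UMIs, 97 of them in the 6 cells.

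Ferritin transcripts stood lower in the definitive type, as many measurable genes did. The median log2 ratio of all measurable genes was -0.47 in the control and -0.56 in the mutant. At least 2-fold lower were 31.5% and 36.8% of them. Of 10 genes for iron uptake and storage, 3 were measurable in the control, with 0 at least 2-fold higher and 1 lower, Ftl1. In the mutant 4 were, with Slc25a37 higher and Fth1 and Ftl1 lower. Without the 6 gene-rich cells Glrx5 was higher and Ftl1 lower, where 12.6% of all measurable genes were higher and 43.7% lower. Fth1, the ferritin heavy chain, stood at 77382 against 129836 CPM in the control, 0.596-fold (0.552 to 0.642). In the mutant it stood at 45926 against 114004, 0.403-fold (0.381 to 0.426). Without the 6 cells its log2 ratio was -0.53, equal to the median of all measurable genes there. Ftl1, the light chain, was 0.451-fold (0.367 to 0.549) and 0.49-fold (0.432 to 0.553). Slc25a37, the mitochondrial iron importer mitoferrin, was 1.45-fold (0.769 to 2.49) in the control and 3.94-fold (3.34 to 4.62) in the mutant. Of its 160 mutant UMIs 139 lay in the 6 gene-rich cells, and without them its log2 ratio was 0.53, as in the control. Tfrc, the transferrin receptor, had 0 UMIs in the control and 33 in the mutant, 32 in the 6 gene-rich cells.

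The summed level of red cell membrane genes was higher in definitive cells of both libraries. Of 21 genes, 1 was measurable in the control, Bsg, which was at least 2-fold higher. In the mutant 5 were measurable, with 3 higher and 0 lower, and without the 6 gene-rich cells 2 were, both higher. Of all measurable genes 11.5% were higher in the control, 12.4% in the mutant and 12.6% without those cells. Bsg, basigin, was 2.93-fold (2.07 to 4.04) higher in the control and 1.92-fold (1.51 to 2.41) in the mutant. Rhd, of the Rh complex, was 2.58-fold (1.57 to 4.0) and 3.41-fold (2.74 to 4.2) higher. Slc4a1, the anion exchanger band 3, had 2 UMIs in the control and 68 in the mutant, of which 64 lay in the 6 cells. In the control 13 of the 21 genes were seen, and members went both ways. Icam4 had a log2 ratio of 2.21 on 5 UMIs and Slc4a1 of -1.63 on its 2. The summed list was at 21932 CPM in control definitive cells against 6142 in primitive ones. In the mutant it was at 20652 without the 6 cells against 7195.

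Gpx1 and Prdx2, enzymes that protect red cells from peroxide, were seen in every definitive cell. Gpx1, glutathione peroxidase, had 1 to 108 UMIs a cell in the control and 16 to 183 in the mutant, at 113486 CPM in the control and 73324 in the mutant. It was 2.51-fold (2.36 to 2.67) and 1.5-fold (1.43 to 1.57) higher than in primitive cells, and had a log2 ratio of 1.37 in the mutant without the 6 gene-rich cells. Prdx2, peroxiredoxin 2, with 2 to 55 and 5 to 93 UMIs a cell, was 2.14-fold (1.93 to 2.37) and 1.4-fold (1.31 to 1.49) higher, with a log2 ratio of 1.11 in the mutant without those cells. Cat, catalase, had 0 UMIs in the control and 11 in the mutant. Of 18 enzyme genes, 7 were measurable in each library. In the control Gpx1 and Prdx2 were at least 2-fold higher and 0 genes lower, and in the mutant 0 were higher or lower. Without the 6 gene-rich cells Gpx1 and Prdx2 were higher and Bpgm lower. Car2, carbonic anhydrase 2, was 1.71-fold (1.31 to 2.19) and 1.89-fold (1.67 to 2.12) higher.

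Car1, the carbonic anhydrase of adult red cells, was named after its values were seen, because it was the clearest gene absent from primitive cells. It had 3 UMIs in 2 control and 11 UMIs in 6 mutant definitive cells. It had 0 UMIs in 1809 control and 2075 mutant primitive cells, among 1177053 and 1804075 non-globin UMIs. The lower end of the counting interval of the ratio was 54.7 in the control and 169 in the mutant, where 6 of the 11 UMIs lay in the gene-rich cells. Nxpe2, also noticed after the fact, had 28 UMIs in 9 mutant definitive cells and 13 in all mutant primitive cells, 145-fold higher (72.9 to 306) with 24 of the 28 in the gene-rich cells, but only 1 against 14 UMIs in the control.

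Genes of organelle clearance and terminal maturation went both ways. Of 24 genes, 23 were in the gene table. Of these, 4 were measurable in the control, with Ubb and Gabarapl2 at least 2-fold higher and 0 lower. In the mutant 8 were, with these and Pim1 higher and 0 lower, and all 39 Pim1 UMIs lay in the 6 gene-rich cells. Without those cells Ubb and Gabarapl2 were higher and Bpgm lower. Ubb was 3.43-fold (2.79 to 4.18) and 3.11-fold (2.75 to 3.51) higher than in primitive cells. Of its 102 control UMIs, control cells 1 and 2 by UMI count held 36 and 28. Gabarapl2 was 3.56-fold (2.55 to 4.83) and 2.16-fold (1.68 to 2.75) higher, the latter with a log2 ratio of 1.97 without the 6 cells. Bnip3l, a receptor for the clearance of mitochondria, was 0.911-fold (0.52 to 1.48) and 1.39-fold (1.08 to 1.75), with a log2 ratio of -0.04 in the mutant without the 6 cells. Bpgm, which makes the oxygen-affinity regulator 2,3-bisphosphoglycerate, was 0.855-fold (0.497 to 1.37) and 0.562-fold (0.388 to 0.786). Both control ratios changed sign when scaled to all UMIs.

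Erythroid transcription factors were too scarce to describe in the control, with 8 UMIs over 15 genes. In the mutant 106 of the list's 115 UMIs lay in the 6 gene-rich cells. None of the 15 was measurable in either library. Lmo2, a bridging cofactor of the erythroid complex, had 27 UMIs, all in those cells. Klf1 had 27 UMIs, 24 of them there. Cell division genes had a like distribution in the mutant, with 295 of the list's 331 UMIs in the 6 gene-rich cells. Of 21 genes, 0 were measurable in the control and 1 in the mutant, H2afz, a histone variant, with a log2 ratio of -1.05 there and of 0.07 without the 6 cells. The summed list stood at 8885 CPM in control definitive cells against 1493 in primitive ones. Of its 79 control UMIs 32 were from Ube2c. In the mutant it stood at 12389 against 2780, or 3774 without the 6 cells. Of 10 mitochondrially encoded genes, 4 were measurable in the control, with mt-Co3 higher and 0 lower, and 8 in the mutant, with 0 higher or lower. Their share of each cell's non-globin UMIs had a median of 2.45% and 2.62% in definitive cells and 0.758% and 1.19% in primitive ones.

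Red cells lose their other RNA as they mature, so the cells were also described by the number of genes seen. Of the control cells, 15 had under 250 genes and 5 had more, up to 426. Of the mutant cells, 22 had under 250, 2 had 250 or more but under 500, 4 had 500 or more but under 1000, and 2 had at least 1000. Apart from the mutant cells under 250 genes, no group held 20 cells, so the 6 mutant cells with at least 500 genes are set here against the 22 with under 250, a split made after seeing the values. The 15 control cells with under 250 genes stand beside them. The cells with at least 500 genes also held the most UMIs of the mutant cells, between 3928 and 20477. At a depth of 1000 UMIs they showed between 111 and 250 genes. There, 2 of them were among the 17 definitive cells of both libraries with the fewest genes. Gene-rich and gene-poor refer here to genes seen without thinning, which follow depth in part.

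The 6 gene-rich cells carried most of the heme enzyme and division transcripts. Their heme synthesis list stood at 33531 CPM, against 8056 in the 22 gene-poor mutant cells and 8624 in the 15 gene-poor control cells. The cell division list stood at 17173, against 2107 and 3901. The erythroid transcription factors stood at 6171, against 620 and 411. The summed enzyme list had the opposite order, at 95238 against 221341 and 199589, which Gpx1 and Prdx2 carried: without them it stood at 28234 against 33338 and 30185. The iron list also did, at 53382 against 104846 and 117864, through ferritin: without Fth1 and Ftl1 it stood at 15136 against 10906 and 9651. The membrane list was at 37781 against 18466 and 16016.

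**Figure D4:**
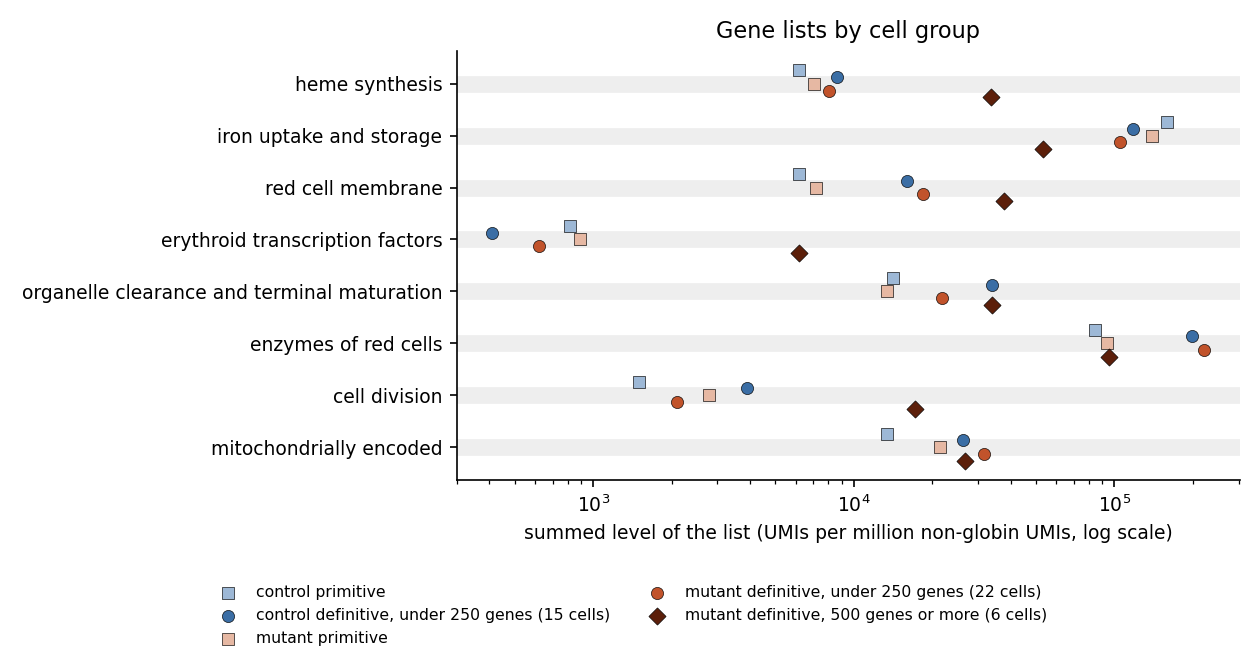
Summed level of each gene list, in CPM of non-globin UMIs on a log scale, in primitive-type cells (squares), definitive-type cells with under 250 genes (circles) and the 6 mutant definitive-type cells with at least 500 genes (diamonds). The diamonds lie to the right of all other marks for heme synthesis, membrane genes, transcription factors and cell division, and to the left for iron genes.

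Alas2 and Fech of the heme list showed the same order in the mutant. The control had no cell with at least 500 genes, so the order could not be examined there. Alas2 stood at 8092 CPM in the gene-rich cells and 991 in the gene-poor mutant ones, 8.16-fold higher (4.03 to 19.3), and at 3696 in the gene-poor control cells. Fech, the last enzyme of heme synthesis, was 13.5-fold higher (4.46 to 66.6) in the gene-rich than in the gene-poor mutant cells. In the control it had 6 UMIs, 4 of them in the gene-poor cells. The genes that stood highest by rank were Hmgb2, Odc1, Cenpf, Pim1, Tfrc, Mki67, Tubb4b and Anp32b. All but Tubb4b and Anp32b had 0 UMIs in the gene-poor mutant cells, so they passed the minimum of UMIs through the gene-rich cells alone. Those cells were chosen for showing many genes and held 17178 non-globin UMIs against 8069. The ranks and bounds are therefore a description. Hmgb2, a chromatin protein of dividing cells, had 63 UMIs in 4 of the 6 cells and 0 in the 22, at least 9.86-fold higher. Odc1, the first enzyme of polyamine synthesis, had 50 and 0, at least 7.83-fold. Tfrc had 32 and 0, at least 5.01-fold, and Mki67, a marker of cycling cells, 30 and 0, at least 4.7-fold. Car2 was at 1.06-fold (0.813 to 1.38), within counting error.

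The genes that stood highest in the gene-poor cells included Ncf4, Elob, Ndufa3, Myl6, Ost4, Sec61g, Ypel3 and Ghitm. Elob, elongin B, had 9667 CPM in the 22 mutant gene-poor cells and 10472 in the control ones, against 1164 in the gene-rich ones, 8.30-fold. Sec61g had 22308 and 24230 against 4017, 5.55-fold. Ncf4, known from the phagocyte oxidase, had 32 UMIs in 15 of the 22 cells and 5 in 3 of the 6. Gpx1 and Fth1 were 3.08-fold and 3.10-fold higher in the gene-poor cells.

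Primitive cells showed the same order when split the same way, into 232 with at least 500 genes and 1146 with under 250 in the mutant and 136 and 1367 in the control. Alas2 was 6.32-fold higher in gene-rich primitive cells of the mutant and 7.99-fold in the control. Fech was 5.0-fold and 6.04-fold higher. Gpx1 was 2.21-fold and 2.14-fold higher in the gene-poor ones, and Elob 3.7-fold and 4.08-fold. Malat1 went another way: it was 2.73-fold and 2.23-fold higher in gene-poor primitive cells, while in the mutant definitive cells the gene-rich group had 0.914-fold (0.792 to 1.06) the level of the gene-poor one.

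The 6 gene-rich cells were not alike. Cells are numbered here by falling UMI count within a library. Mutant cells 1, 3 and 5 held 15, 10 and 5 UMIs of Mki67, 11, 10 and 7 of Tfrc, 32, 18 and 9 of Slc4a1 and 15, 17 and 8 of Rgcc, with no Hbb-bh1. They showed 1523, 1164 and 881 genes. Mutant cells 2 and 4 were nearly as deep, at 14357 and 11353 UMIs, but showed 699 and 567 genes, no Mki67, and 278 and 232 UMIs of Hbb-bh1. They held 41 and 24 UMIs of Alas2, as much as cells 1 and 3 with 34 and 22. Mutant cell 6, at 3928 UMIs, held 1 Alas2 UMI, 27 of Hbb-bh1 and the lowest haemoglobin share of the 6, at 55.2%.

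The 5 deepest of the 6 gene-rich mutant cells also had another Hbb-bt share and a low alpha-type share. Mutant cell 6 did not, at 17.2% Hbb-bt and 39.9% alpha-type. Hbb-bt made up between 7.01% and 14.1% of adult beta UMIs in every control cell. In the mutant, the 5 deepest cells had 26.4% to 31.8% and the other 25 had 9.86% to 18.4%, with no cell between these ranges. Among cells with under 500 genes the medians were 11.0% in the control and 16.2% in the mutant, and the cells overlapped. Alpha-type genes made up 24.8% to 34.3% of globin in the 5 deepest mutant cells and 34.5% to 50.8% in the others, against 33.7% to 47.7% in the control. The alpha shares thus left no gap between cells as the Hbb-bt shares did. Over cells, Spearman's rho between genes seen and the Hbb-bt share was 0.16 in the control (20 cells) and 0.43 in the mutant (30 cells). For the alpha share it was -0.39 and -0.52. The cells of a library share 1 preparation and differ in depth, so these are descriptions. Primitive cells had the same order, with a median Hbb-bt share of 60% with at least 500 genes and 24.2% with under 250 in the mutant (cells with at least 50 adult beta UMIs), and of 35.8% and 11.8% in the control.

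**Figure D5:**
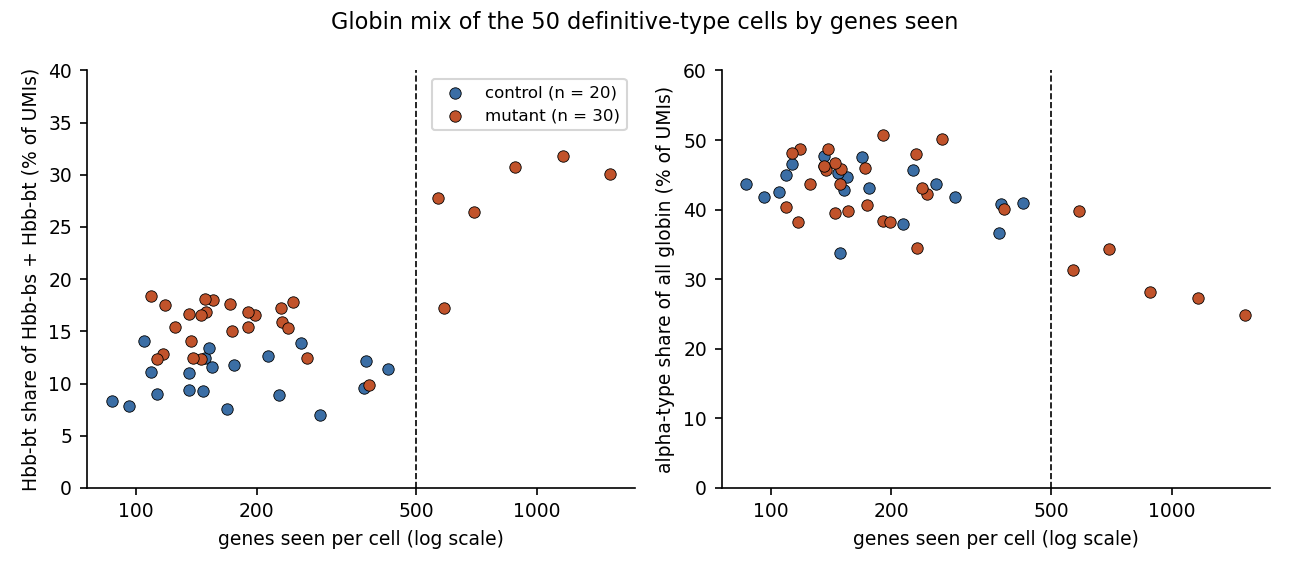
Hbb-bt as a percentage of Hbb-bs and Hbb-bt UMIs (left) and alpha-type genes as a percentage of all globin UMIs (right) against genes seen per cell (log scale), for the 20 control and 30 mutant definitive-type cells; the dashed line marks 500 genes. The 5 deepest mutant cells stand apart in Hbb-bt, at 26.4% to 31.8%. Their alpha-type share, 24.8% to 34.3%, is low but adjoins that of the other cells, and 1 control cell at 33.7% lies within it.

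Between genotypes, the genes highest in the mutant definitive type rested largely on the 6 gene-rich cells. Of 192 genes with at least 30 UMIs over both libraries, 21.9% stood at least 2-fold higher in the mutant and 10.4% at least 2-fold lower. The mutant cells held 26717 non-globin UMIs against 8891, so a gene passed this limit more easily through the mutant. Among cells with under 500 genes, 3.88% of 103 genes were higher and 6.8% lower. Genes seen mainly in the 6 cells drop out of that smaller set, so these shares cover unlike sets of genes. The 6 highest genes were Slc2a1, Trim10, Tubb5, Hemgn, Pim1 and Tfrc, each with 0 UMIs in the control, so they passed through the mutant alone. Slc2a1, the glucose transporter GLUT1, had 59 mutant UMIs, 56 in the 6 cells, at least 6.54-fold higher. Trim10, an erythroid ubiquitin ligase, had 46, of which 44 in the 6 cells, at least 5.1-fold. Tubb5, a beta tubulin, had 45 with 44 there, and Hemgn, hemogen, 39 with 36 there. Pim1, a serine/threonine kinase, had all 39 there. In mutant cells with under 500 genes these 6 genes had at most 3 UMIs each.

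The 6 lowest genes were Cox6b1, H2afz, Mt2, Ndufb8, Myl6 and Smdt1. Mt2, a metallothionein, had 25 UMIs in 11 mutant cells and 27 in 10 control cells, 0.308-fold (0.172 to 0.552), and a log2 ratio of -2.25 among cells with under 500 genes. Cox6b1, a cytochrome oxidase subunit, was 0.26-fold (0.132 to 0.504), and -2.02 on the log2 scale among those cells. H2afz, Ndufb8, Myl6 and Smdt1 were between 0.291-fold and 0.343-fold over all cells, and between -0.86 and -0.54 on the log2 scale among those with under 500 genes. Pttg1, securin, noticed after its values were seen, was higher in the mutant in both views. It had 86 UMIs in 25 of 30 mutant cells against 5 in 4 of 20 control cells, 5.72-fold (2.36 to 18.1), and 51 against 5 among cells with under 500 genes, a log2 ratio of 3.23. In primitive cells its log2 ratio of mutant over control was 0.80. Whether such a difference belongs to the genotype, the library or the embryos cannot be told apart.

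Markers of other cells were near 0 in the definitive type. Of 8 cardiomyocyte markers, 6 were seen in the control with 14 UMIs in all and 5 in the mutant with 22, at 1575 and 823 CPM. The primitive cells had 1385 and 953 CPM. The highest were Myl7 with 5 UMIs in the control and Actc1 with 10 in the mutant, both sarcomere genes of heart muscle, and Myh7 had 0 in both. Their part in the results was not tested. All endothelial, mesenchymal, epicardial, macrophage, megakaryocyte and blood progenitor markers had 0 UMIs in both libraries, Kit, C1qa and Pf4 among them. So did 7 RNA-binding protein genes of fetal growth and 9 arginine methyltransferase genes. In primitive cells these lists summed to 19.5 and 49.3 CPM in the control and 18.3 and 64.3 CPM in the mutant. A count of 0 allows up to 337 and 112 CPM, so neither absence nor a difference was detectable. Of the marker genes given for the type, Hbb-bs, Hbb-bt and Hba-a1 were seen in all 50 cells, but the rule itself used these 3, so their presence checks nothing. Alas2, which the rule did not use, was seen in 24 of the 50 and marks red cells of both types. The Hba-x values above are the check on the definitive label that the rule left free.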

How the data were processed

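Single-cell RNA of 2 mouse heart libraries was deposited as raw counts (UMIs for each gene in each barcode). Per the file headers, the software was Cell Ranger 3.0.2. Seurat is a further tool in the submitters' notes. The labels give the 10X Genomics Chromium kit after TrypLE digestion. No label or header states the genome build; positions are from GENCODE M21 (GRCm38) by gene identifier, which matched for 99.6% of 31053 genes. Barcodes of at least 1000 UMIs were used, with total depths of 49323576 and 48527471 UMIs in the deposited matrices. No doublet caller was run; an alternative drops barcodes with 5% or more other-type markers and the top 5% of UMIs.

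UMIs were summed over cells, divided by non-globin UMIs, and compared as log2 ratios with 10 CPM (UMIs per 1000000 non-globin UMIs) added (numpy 2.4.6, scipy 1.17.1, Python 3.11.15). Ratios have exact conditional binomial intervals and shares exact Clopper-Pearson intervals, at 95%. Thinning drew 1000 UMIs per cell without replacement. A count of 0 was read as up to 3 UMIs. The ratio and interval code was tested on simulated data.

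Genes were named by rank: the 10 highest and 10 lowest against the primitive type by the smaller ratio of both libraries, the 6 highest and 6 lowest between genotypes, and the leading genes of each list; some of these are not reported here. Bins of genes seen mostly held under 20 cells, so the planned bin comparison could not be made. The splits at 500 genes and by Malat1, the limits of 10 UMIs seen or expected and of 10 expected, and the genes named from these splits were chosen after seeing the data. The members and lists were chosen with earlier results of these data known.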

Additional observations from a re-analysis of the deposited data

Results flagged for a closer look

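Thinned to 1000 UMIs, definitive-type cells showed a median of 12 genes more than primitive-type cells in the control and a difference of -26 genes in the mutant. This is listed because the libraries went opposite ways. The difference between the libraries was not tested, and cells of both types overlapped in each.

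Barcodes with at least 500 but under 1000 UMIs entered no comparison, yet many had the definitive mix. They numbered 74 of 298 red cells of that depth in the control, 24.8% (20% to 30.1%), and 40 of 144 in the mutant, 27.8% (20.6% to 35.8%). At 1000 UMIs or more the shares were 1.09% and 1.42%. Of the 74 control cells 65 had at most 2 Malat1 UMIs, and of the 40 mutant cells 38. Among primitive-type cells of that depth 3 of 224 and 7 of 103 did. Hba-x was at 0 in 66 of the 74 and 31 of the 40, and in none of those primitive-type cells. Hbb-y made up 0.0578% of UMIs in the 74 control cells, against 3.55% in near-empty barcodes.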

How the results depend on the processing

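No paired analysis was possible because each genotype has 1 library, and there was no replicate to leave out. Of 106 values under alternative settings, 67 stayed close to the reported value, 39 moved and 0 reversed. Each was a share, a median or a count of genes, which has no sign, so the 0 was fixed in advance. It says nothing about direction. Some directions did turn, such as the order of the libraries below and the control ratio of Alas2 above.

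With a minimum of 500 UMIs the definitive share rose from 1.09% to 4.42% in the control and from 1.42% to 3.10% in the mutant, which turned the order of the libraries. With at least 80% haemoglobin the mutant share was 2.88%, on 4 cells, the Hba-x share 0.0607%, and the median of genes seen at 1000 UMIs 74 in the control (3 cells) and 110.5 in the mutant. That median was 193 with a minimum of 2000 UMIs, on 9 cells, and 182.5 without thinning. Fewer cells or UMIs enter these values by construction.

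Counts of genes past 2-fold against the primitive type, 356 higher and 1175 lower in the control and 596 and 1200 in the mutant, moved with the filter. With at least 10 UMIs they were 562 and 2483 in the control and 1110 higher in the mutant. With 10 UMIs seen or expected, chosen after seeing the data, they were 54 and 41, and 210 and 110. With 10 UMIs expected from the primitive level, also added then, they were 15 and 41, and 37 and 110. At 80% haemoglobin they were 147 and 745, and 215 and 441. In cells with 250 or more but under 500 genes (5 and 2 cells) they were 119 and 295 in the control and 224 higher in the mutant. Lower genes numbered 631 and 537 when scaled to all UMIs, and 585 and 351 with a pseudocount of 50. Without the 6 gene-rich cells, also chosen after seeing the data, the mutant had 375 higher and 1951 lower.

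Between genotypes, 42 higher and 20 lower genes became 6 and 5 of 27 at 80% haemoglobin, 4 and 7 of 103 under 500 genes, and 170 and 63 of 529 with at least 10 UMIs. With a minimum of 2000 UMIs, 13 were lower. Scaling to all UMIs moved the median log2 ratio of the genes seen by 0.14 in the control and -0.17 in the mutant. It changed the sign of 5 of 60 named genes in the control, Cpox, Bnip3l, Bpgm, Actc1 and Ncf4, and of mt-Cytb in the mutant, with log2 ratios of at most 0.22 in size. The cause of the other moves was not tested.

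The depth limits all of this: 1 UMI stood for 112 CPM in the control definitive-type cells and 37.4 CPM in the mutant ones.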

Other observations

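Hba-a2, the second adult alpha gene, fell into 2 ranges within the definitive type. It made up 25.4% of adult alpha UMIs in 1 control cell and 40.5% to 52.4% in the other 19. In the mutant it made up 21.8% to 25.8% in 10 cells and 39.0% to 49.5% in the other 20. Primitive-type cells with under 30% numbered 527 of 1809 in the control and 1044 of 2075 in the mutant. Hba-a1 and Hba-a2 are near-identical copies, so how reads were assigned between them bears on these shares; its part was not tested.

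Barcodes of at least 1000 UMIs with a definitive mix, at least 50 beta-type UMIs and under 50% haemoglobin numbered 15 in the control and 12 in the mutant. They had a median of 887 and 1013.5 genes. Of these, 7 control and 3 mutant barcodes held at least 10 cardiomyocyte marker UMIs, and 2 control barcodes held at least 10 endothelial ones.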
